A study of Mus musculus with 35 samples.

Results

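The immunoproteasome and the PA28 activators were followed in podocytes through 6 genes, Psmb8, Psmb9, Psmb10, Psme1, Psme2 and Psme3, which were chosen by name and not by level from the 33292 genes measured. Podocytes, the cells that cover the glomerular capillaries, were sorted by EGFP from 35 mice and sequenced, with 1 library per mouse. All mice carried an rtTA transactivator expressed under a podocyte promoter, together with tetO::Cre, the mT/mG reporter and 1 floxed Lmx1b allele. Doxycycline at 2 mg/ml in the drinking water deleted the floxed allele, so that podocytes of control Lmx1b+/lox mice, labelled WT, kept 1 wild-type allele. Podocytes of Lmx1bH77L/lox and Lmx1bC118F/lox mice kept only the allele with a substitution in a LIM domain. The mice were 7 to 10 weeks old, were injected every other day with bortezomib (Btz) at 0.3 µg/g or with the solvent DMSO alone, and were sampled on day 7. There were 6 mice per group, with the exception of 5 in C118F_Btz.

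The proteasome degrades ubiquitinated proteins in a barrel whose inner rings hold the catalytic β subunits. In cells exposed to interferon, newly built barrels take up Psmb8 (β5i) instead of Psmb5 (β5), Psmb9 (β1i) instead of Psmb6 (β1) and Psmb10 (β2i) instead of Psmb7 (β2), and the resulting immunoproteasome is best known for cutting peptides for MHC class I molecules. Psme1 (PA28α) and Psme2 (PA28β) together form an interferon-inducible cap on the barrel, while Psme3 (PA28γ) forms a nuclear cap of its own and is not known as an interferon target. Bortezomib binds mainly to the β5 and β5i sites.

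On GRCm39, Psmb8 (ENSMUSG00000024338, chr17:34416690-34420428, plus strand) and Psmb9 (ENSMUSG00000096727, chr17:34400960-34406738, minus strand) lie in the MHC class II region with Tap1, which encodes a subunit of the peptide transporter. The bodies of Psmb9 and Tap1 overlapped by 743 bases on opposite strands, and their canonical starts were 363 bases apart. A strand setting of the counting is not given in the sources used here, so reads in that overlap cannot be told apart. Psme1 (ENSMUSG00000022216, chr14:55815190-55822034, plus strand) and Psme2 (ENSMUSG00000079197, chr14:55824895-55829173, minus strand) were neighbours with a gap of 2860 bases, and Irf9 followed 11854 bases beyond Psme2. Psmb10 (ENSMUSG00000031897, chr8:106662362-106665077, minus strand) and Psme3 (ENSMUSG00000078652, chr11:101206777-101215813, plus strand) stood on other chromosomes. Psme2b on chromosome 11 is a near-identical copy of Psme2, so reads could be split between both.

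The promoters from RefSeq (GRCm38.p6, 250 bases before to 50 after the start) were searched on both strands for the interferon gamma-activated site GAS (TTCNNNGAA), for the core of the interferon-stimulated response element (GAAA, any 2 bases, GAAA) and for the core of the antioxidant response element ARE (TGACNNNGC). The 3 sequences shown are an immuno-subunit with a GAS match, its constitutive counterpart with an ARE match, and the PA28 subunit with a response-element match, with each match in capitals. Psmb8 and Psmb5 are shown from 250 bases upstream up to the start (Psmb8, chr17:34197945-34198194, plus strand; Psmb5, chr14:54617996-54618245, minus strand), and Psme1 by its first 30 transcribed bases (chr14:55578494-55578523, plus strand).
Psmb8 upstream: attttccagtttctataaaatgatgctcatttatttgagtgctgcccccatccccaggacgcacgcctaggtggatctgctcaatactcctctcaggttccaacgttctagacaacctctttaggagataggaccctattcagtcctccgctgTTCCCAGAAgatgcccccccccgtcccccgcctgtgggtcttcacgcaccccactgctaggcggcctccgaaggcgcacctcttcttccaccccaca
Psmb5 upstream: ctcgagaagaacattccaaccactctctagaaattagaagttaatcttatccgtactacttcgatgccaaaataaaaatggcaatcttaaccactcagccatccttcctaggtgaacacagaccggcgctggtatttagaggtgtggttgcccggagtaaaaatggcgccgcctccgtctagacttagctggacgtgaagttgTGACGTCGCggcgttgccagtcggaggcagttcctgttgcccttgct
Psme1 first transcribed bases: gagctgtgcTTTCGCTTTCccttcccgctg
A GAS match stood in the Psmb8 promoter and in none of the promoters of the other 5 members, against 8.30% of all 32851 promoters. The response-element core matched in Psme1 alone among the members (3.44% of all promoters). The ARE core matched in none of the members, but in Psmb5 and Psmb6 (12.4% of all promoters). Windows around the canonical GENCODE starts of GRCm39 kept the matches of Psmb5 and Psmb6, moved the GAS match of Psmb8 to another place 10 to 18 bases after the start, and held none for Psme1. Such matches describe letters and not binding.

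Mice were sequenced to a recovered depth between 5268863 and 24147833 reads (median 19166695). The lowest value belonged to C118F_Btz replicate 2, and the next lowest mouse had 14037895 reads. All 10 podocyte markers were detected in every group, with summed levels of 22990 to 39330 TPM in control and 6626 to 16380 TPM in knock-in mice, so the sorted cells differed between genotypes in the markers by which they are known. The summed level of 6 mesangial markers was 37.3 to 187 TPM in WT_DMSO, 585 to 962 TPM in H77L_DMSO and 628 to 1053 TPM in C118F_DMSO. In the same order, Des had means of 34.8, 465 and 578 TPM and Pdgfrb of 14.4, 247 and 154 TPM. Gata3 and Itga8 had means of at most 1.08 TPM in each of these groups. The sum of 3 parietal markers was 29.7 to 53.1, 98.8 to 225 and 70.5 to 154 TPM. Cldn1 had means of 24.3, 104 and 84.6 TPM and Pax8 of 13.8, 27.1 and 26.2 TPM, whereas Cdh6 had means of at most 0.651 TPM. The part of these markers in the genotype comparisons was not tested. Of 15 leukocyte markers, the summed level was 5.96 to 567.9 TPM in WT_DMSO, 12.9 to 38.7 TPM in H77L_DMSO and 8.98 to 53.5 TPM in C118F_DMSO, and it was 2.91 to 45.6 TPM in the 3 bortezomib groups. For 7 tubule markers, the sum was 8.10 to 993 TPM in WT_DMSO, 5.82 to 247 TPM in H77L_DMSO and 3.28 to 113 TPM in C118F_DMSO. It was 4.01 to 332 TPM in the bortezomib groups, and the highest tubule sum belonged to WT_DMSO replicate 2. The part of the leukocyte and tubule markers was not tested. In bulk samples, a change in the share of cells that express a gene and a change in RNA per cell cannot be told apart. The targeted gene, Lmx1b, measured over the whole gene, had median levels of 71.5 TPM in WT_DMSO, 119.8 TPM in H77L_DMSO and 104 TPM in C118F_DMSO, which does not check the deletion of its homeodomain exons.

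The 6 members covered a wide range of levels, and their order was much the same in most mice. Medians in WT_DMSO mice rose from 3.64 TPM for Psmb8 over 12.9 TPM for Psmb9, 35.4 TPM for Psmb10, 137 TPM for Psme1 and 245 TPM for Psme3 to 249 TPM for Psme2. In 26 of 35 mice, Psmb8 was lowest, followed by Psmb9, Psmb10, Psme1, Psme2 and Psme3, and in 6 more mice only Psme2 and Psme3 were exchanged. The other 3 mice all belonged to C118F_DMSO. Psmb9 was lowest in replicates 1 and 6, and Psmb10 exceeded Psme1 in replicates 1 and 5. In WT_DMSO, the immuno-subunits stood far below the PA28 subunits, and below Psmb5 and Psmb6, whose medians were 452 and 443 TPM in WT_DMSO, with Psmb7 at 82.5 TPM. Psmb8 rested on 24 to 293 reads per mouse outside C118F_DMSO and on 112 to 3031 reads within it.

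**Figure D1:**
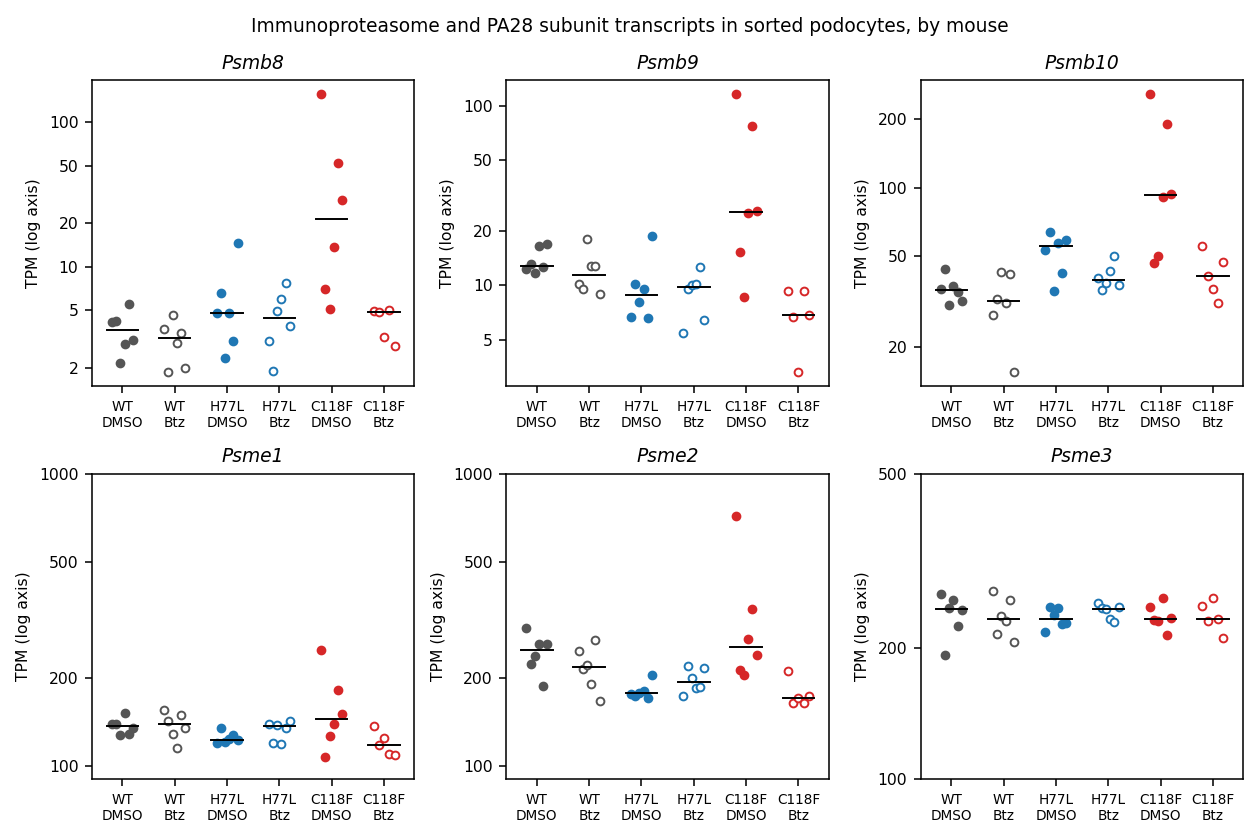
TPM of each member on a log axis in every mouse, with filled points for DMSO, open points for bortezomib and a line at the group median. Psmb8, Psmb9 and Psmb10 reach 156, 116 and 257 TPM in C118F_DMSO, while Psme3 stays between 192 and 269 TPM in all groups.

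The first question was whether podocytes left with only a mutant Lmx1b allele differed in these subunits from control podocytes under DMSO. Psmb8 and Psmb10 were higher in C118F_DMSO than in WT_DMSO mice, and Psmb10 was higher and Psme2 lower in H77L_DMSO mice. The remaining members did not pass the test in either line. For C118F, 2 of 6 members were called higher at an adjusted p under 0.05, against 13.7% of all genes tested, and none lower. For H77L, 1 of 6 was called higher and 1 lower, against 22.4% of all genes in each direction, a share near the background.

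Psmb8, the β5i subunit, had 2.18 to 5.53 TPM (median 3.64) in WT_DMSO. In C118F_DMSO, it had 156, 7.07, 5.13, 13.7, 52.2 and 29.1 TPM in replicates 1 to 6. Only replicate 3 fell within the range of the control mice, and the highest mouse exceeded the lowest by 30.5-fold. The difference in log2(TPM + 1) was 2.39 ± 0.62 (SE, limma, adjusted p = 0.00977), and the ratio of mean TPM was 11.9, or 5.82 without replicate 1. In H77L_DMSO, Psmb8 had 2.36 to 14.7 TPM (median 4.81), overlapping the control, and the difference of 0.44 ± 0.31 (SE) was not called (limma, adjusted p = 0.273).

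Psmb10, the β2i subunit, had 30.6 to 44.0 TPM (median 35.4) in WT_DMSO and 257, 46.6, 50.2, 91.4, 191 and 93.9 TPM in the C118F_DMSO replicates 1 to 6. These groups did not overlap, which held for 1 of 6 members and for 13.7% of all genes, a share near the background. The difference was 1.47 ± 0.35 (SE) in log2(TPM + 1), with an adjusted p of 0.00551 in limma. In H77L_DMSO, Psmb10 had 35.3 to 63.9 TPM (median 55.2), and 4 of 6 mice stood above every control mouse. This smaller difference of 0.50 ± 0.14 (SE) was called as well (limma, adjusted p = 0.00934).

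Psmb9, the β1i subunit, had 11.7 to 16.9 TPM (median 12.9) in WT_DMSO and 116, 15.3, 8.68, 25.3, 77.02 and 25.9 TPM in the C118F_DMSO replicates 1 to 6. Here, 4 mice stood above and 1 below the control range, and the difference of 1.11 ± 0.47 (SE) missed the threshold (limma, adjusted p = 0.0905). It fell to 0.73 without replicate 1 (adjusted p = 0.158), and it was called with all 35 mice in 1 fit (limma, adjusted p = 0.0161) and without replicate 3 (1.45, adjusted p = 0.0178). The fit of all 35 mice takes a common variance per gene over all groups. The C118F_DMSO mice spread most for Psmb9, by 13.4-fold from lowest to highest, against at most 2.87-fold in the other groups. In H77L_DMSO, the values of Psmb9 were 6.57 to 18.9 TPM (median 8.84), with 5 of 6 mice below every control mouse and replicate 6 above them. The difference of -0.51 ± 0.21 (SE) was not called (limma, adjusted p = 0.0614), but it was called without H77L_DMSO replicate 6, at -0.69 with an adjusted p of 0.00262 in limma. It was also called with array quality weights (-0.66, limma, adjusted p = 0.00849) and with limma voom (-0.58, adjusted p = 0.0448).

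Of the PA28 subunits, Psme2 was the only one called, and only in H77L. Psme2 had 188 to 296 TPM (median 249) in WT_DMSO and 171 to 205 TPM (median 177) in H77L_DMSO, with 5 of 6 mice below every control mouse. Its difference was -0.42 ± 0.10 (SE, limma, adjusted p = 0.00346). In C118F_DMSO, Psme2 had 718, 213, 204, 272, 344 and 240 TPM in replicates 1 to 6, so replicates 1 and 5 stood above the control and the other mice within its range (difference 0.30 ± 0.25 SE, limma, adjusted p = 0.395). Without replicate 1, this difference was 0.045.

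Psme1, the partner of Psme2, had 128 to 151 TPM in WT_DMSO, 120.2 to 135 TPM in H77L_DMSO and 107 to 250.2 TPM in C118F_DMSO. Neither difference was called (-0.13 ± 0.07 and 0.17 ± 0.16, SE; limma, adjusted p = 0.133 and 0.473), and the one for C118F was 0.025 without replicate 1. The ratio of Psme1 to Psme2 had a median of 0.558 in WT_DMSO, 0.683 in H77L_DMSO and 0.521 in C118F_DMSO. Psme3, the nuclear PA28γ, had medians of 245, 233 and 233 TPM in these groups, and its differences had 95% intervals of -0.20 to 0.16 for H77L and of -0.21 to 0.20 for C118F. Psme2b, the copy of Psme2, had medians of 22.3 TPM in WT_DMSO, 14.5 TPM in H77L_DMSO and 22.8 TPM in C118F_DMSO, and was called in neither comparison.

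The stricter thresholds of the study, with a fold change over 2 on the log2 scale and an adjusted p under 0.001, were passed by none of the 6 members in either line by limma, against 2.17% of all genes for H77L and 2.27% for C118F. The study applied them to shrunken fold changes from DESeq2, and whether the members are among its own called genes was not checked. The calls at an adjusted p under 0.05 for H77L (Psmb10 and Psme2) were lost when all 35 mice were fitted together (limma, adjusted p = 0.137 and 0.0547). The differences themselves were 0.50 and -0.42 in that fit too. Its common variance includes C118F_DMSO, where the highest mouse exceeded the lowest by 5.52-fold for Psmb10 and by 3.52-fold for Psme2. In the groups compared, this was at most 1.81-fold and 1.57-fold. The part of this spread in the lost calls was not tested. The call of Psmb8 for C118F was lost with limma voom on recovered reads (2.64, adjusted p = 0.0524). It was also lost with the number in each sample title (title number) as a covariate (1.91, adjusted p = 0.0612 in limma). The labels do not say what this number stands for.

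**Figure D2:**
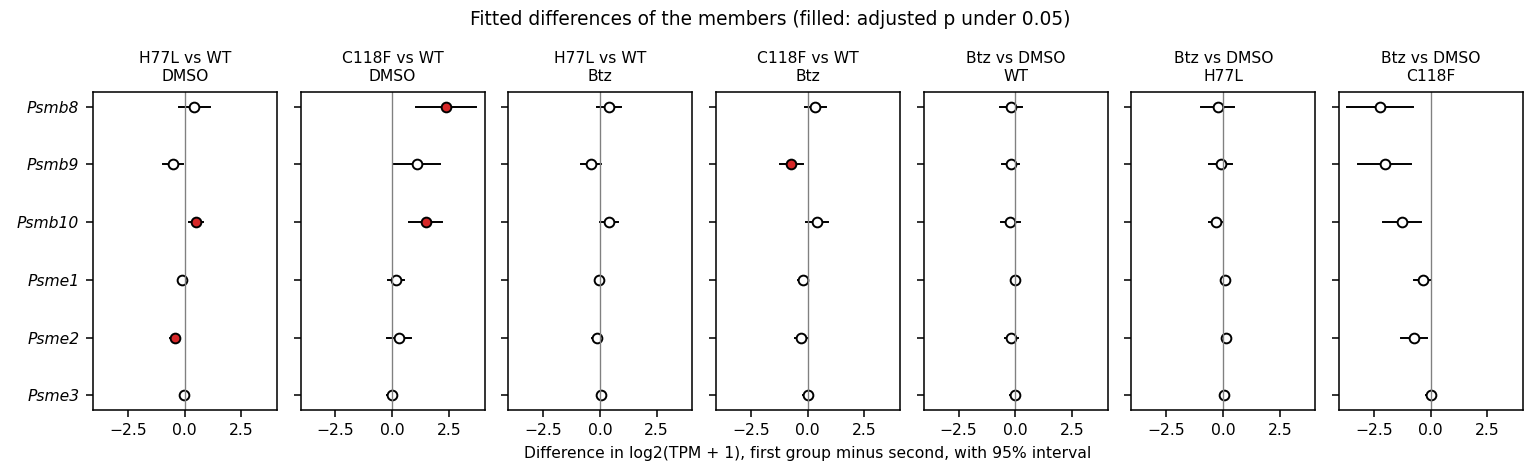
Differences in log2(TPM + 1) of each member with 95% intervals from limma, first group minus second, for 4 genotype and 3 bortezomib comparisons, filled where the adjusted p is under 0.05. Psmb8 (2.39) and Psmb10 (1.47) are filled for C118F under DMSO, Psmb10 (0.50) and Psme2 (-0.42) for H77L under DMSO, and Psmb9 (-0.72) for C118F under bortezomib.

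The spread among the C118F_DMSO mice was shared by the members. Replicate 1 ranked highest and replicate 5 next for Psmb8, Psmb9, Psmb10, Psme1 and Psme2, whereas for Psme3 replicate 5 ranked lowest. Relative to the WT_DMSO median on the log2 scale, replicate 1 stood at 5.43 for Psmb8, 3.17 for Psmb9, 2.86 for Psmb10, 0.87 for Psme1 and 1.53 for Psme2. Replicate 3 was lowest for Psmb8 (0.50) and Psmb9 (-0.57), and replicate 2 for Psmb10 (0.39).

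**Figure D3:**
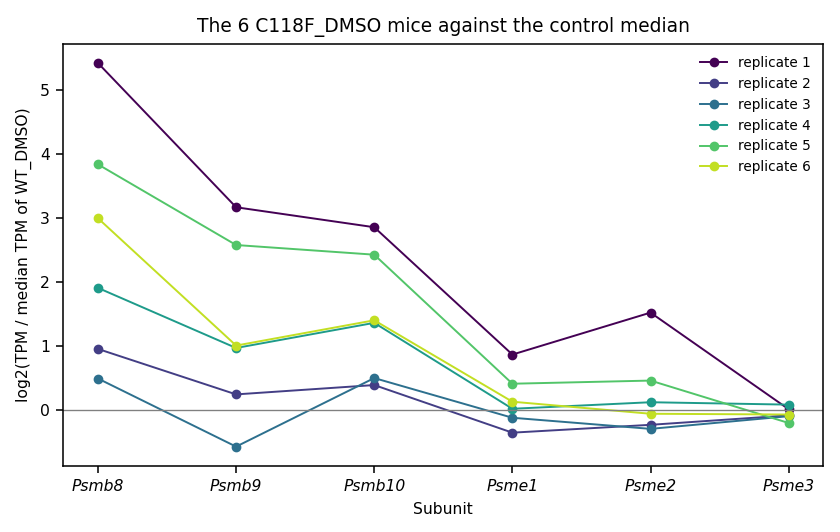
The log2 ratio of TPM to the WT_DMSO median for each member (horizontal axis) in the 6 C118F_DMSO mice, 1 line per mouse. Replicates 1 and 5 lie highest for the 3 immuno-subunits (5.43 and 3.84 for Psmb8), and all lines meet near 0 at Psme3.

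Some marker sums also set replicate 1 apart, and the podocyte sum was lowest in replicates 1 and 5. Replicate 1 had the highest summed leukocyte markers of its group (53.5 TPM, the others 8.98 to 31.3 TPM), the highest summed endothelial markers (168 TPM, the others 16.0 to 45.6 TPM) and the lowest summed podocyte markers (6626 TPM, the others 7381 to 14530 TPM). Replicate 5, in contrast, had 24.8 TPM of leukocyte and 21.4 TPM of endothelial markers, both within the range of the lower mice, and the next lowest podocyte sum. The part of these markers in the result was not tested. Without replicate 1, Psmb8 was still called higher in C118F_DMSO (1.84, adjusted p = 0.00784 in limma), as was Psmb10 (1.20, adjusted p = 0.00572), and both calls held whichever of the 12 mice was left out. The same was true of Psmb10 and Psme2 in H77L_DMSO. Of the 15 leukocyte markers in C118F_DMSO, Itgam and Cd3e were at 0 in every mouse and 6 in all did not exceed 1 TPM in any, whereas Cd68 reached 15.1 TPM and Csf1r, which had 4.29 to 11.9 TPM, was called higher than in WT_DMSO (0.81, limma, adjusted p = 0.0206). Among the 3 leukocyte markers tested for C118F against control under DMSO, 1 was called higher and 1 lower, against 13.7% and 16.6% of all genes. Lyz2 had a mean of 61.9 TPM in WT_DMSO and of 1.24 TPM in C118F_DMSO. In H77L_DMSO, Csf1r was called higher as well (1.23, limma, adjusted p = 0.00157). The highest leukocyte sum in WT_DMSO came from replicate 1, and Lyz2 reached 285 TPM in that group.

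The balance of each immuno-subunit with its constitutive counterpart was taken as the share of the immuno-subunit in the summed TPM of the pair. Psmb8 made up 0.440 to 1.26% of Psmb8 plus Psmb5 in WT_DMSO, 0.727 to 4.42% in H77L_DMSO and 1.14 to 26.7% in C118F_DMSO. For Psmb9 of Psmb9 plus Psmb6, the shares were 2.43 to 3.76%, 2.07 to 5.93% and 2.28 to 24.1% in the same order. Psmb10 already contributed 23.3 to 34.7% of Psmb10 plus Psmb7 in WT_DMSO, 30.3 to 48.3% in H77L_DMSO and 36.3 to 78.9% in C118F_DMSO, with a median of 56.6% in the latter group.

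For C118F against control under DMSO, the log2 ratio rose by 2.93 for Psmb8 to Psmb5 and by 1.75 for Psmb10 to Psmb7, both with an adjusted p of 0.0455 (two-sided exact permutation test, n = 6 and 6, adjusted over 21 tests), while Psmb9 to Psmb6 differed by 1.61 with an adjusted p of 0.0758. The smallest p this design allows is 0.00216 before adjustment. Both calls were lost when any 1 of the 6 WT_DMSO mice was left out (exact permutation test, adjusted p up to 0.0909). For H77L, the ratios differed by 0.95, 0.03 and 0.72, with adjusted p-values of 0.102, 0.918 and 0.0727 in the same exact permutation test, and none of the other 15 tests passed either.

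**Figure D4:**
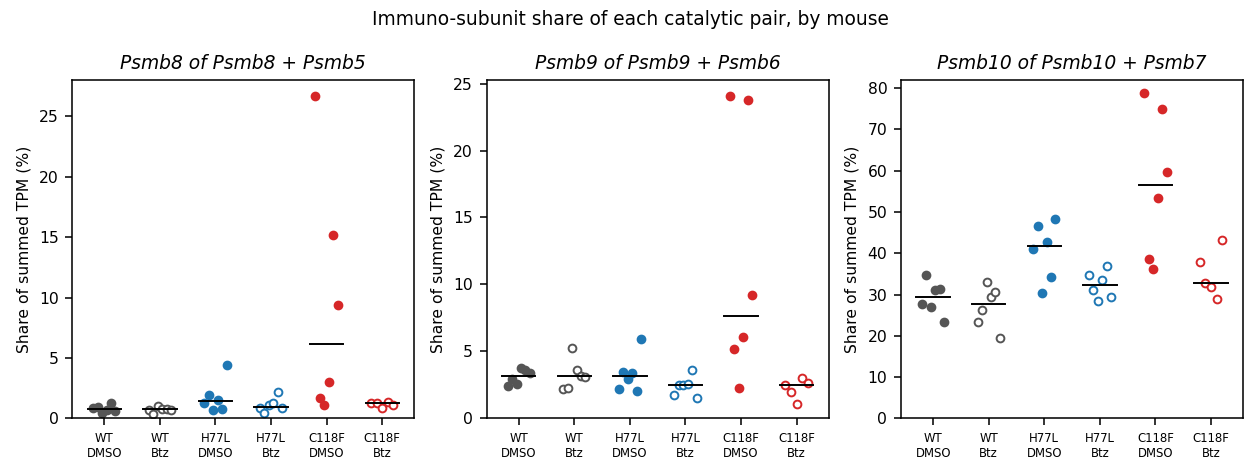
Share of the immuno-subunit in the summed TPM of its catalytic pair, in percent, in every mouse with a line at the group median (filled, DMSO; open, bortezomib). Medians in C118F_DMSO are 6.19% for Psmb8, 7.64% for Psmb9 and 56.6% for Psmb10, and 1.27%, 2.49% and 32.7% in C118F_Btz.

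Among the constitutive counterparts, Psmb6 was lower in both lines and Psmb5 in H77L. In H77L_DMSO, Psmb6 fell by 0.59 and Psmb5 by 0.44 on the log2 scale (limma, adjusted p = 0.00019 and 0.000855), and Psmb7 differed by -0.21 without passing (adjusted p = 0.0805). In C118F_DMSO, Psmb6 fell by 0.47 (limma, adjusted p = 0.0203), whereas Psmb5 (-0.28) and Psmb7 (-0.25) did not pass. Of the 14 subunits of the constitutive core, 8 were lower and none higher in H77L_DMSO, against 22.4% of all genes lower, with a median difference of -0.29 against -0.01 over all genes. In C118F_DMSO, 2 were lower and none higher, against 16.6% of all genes lower, a share near the background, with a median of -0.19 against -0.06. The lowest p among them was that of Psmb3, the β3 subunit, which fell by 0.53 in H77L_DMSO and by 0.54 in C118F_DMSO (limma, adjusted p = 0.000154 and 0.016).

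The remaining activators and assembly factors were mixed. Psme4, the PA200 activator, rose in H77L_DMSO from a mean of 22.3 to 37.5 TPM (0.73 ± 0.10 SE, limma, adjusted p = 5.01e-05) and in C118F_DMSO to 34.5 TPM (0.56, adjusted p = 0.0386). Psmg4, an assembly chaperone, fell by 0.64 in H77L_DMSO (limma, adjusted p = 0.000132), and Pomp, the maturation factor, by 0.25 (adjusted p = 0.0326). In all, 1 of 7 of these genes was higher and 4 lower in H77L_DMSO, and 1 higher and 1 lower in C118F_DMSO. Over all genes, 22.4% were called in each direction for H77L, and 13.7% higher and 16.6% lower for C118F, so the C118F counts are near the background. Of the 3 genes of the response by which cells replace inhibited proteasomes, 1 was called higher in each line and none lower. This was Nfe2l1, the transcription factor of proteasome genes, with 0.58 in H77L_DMSO and 0.41 in C118F_DMSO (limma, adjusted p = 0.00125 and 0.0393). Ddi2, the protease that activates it, and Ngly1, which removes its glycans, were not called (0.16 and -0.13 for H77L, 0.00 and -0.14 for C118F), and none of the 3 was called for bortezomib against DMSO in any genotype. Psmb11, the thymus-specific β5t, did not pass the expression filter in any comparison.

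Genes of interferon signalling and peptide loading are the usual companions of the immuno-subunits. Of 14 tested signalling genes, 6 were higher and 1 lower in H77L_DMSO, and 5 higher and 1 lower in C118F_DMSO, against 22.4% of all genes in each direction for H77L, and 13.7% higher and 16.6% lower for C118F. Ifngr1, the ligand-binding chain of the interferon gamma receptor, fell by 0.66 in H77L_DMSO and by 0.86 in C118F_DMSO (limma, adjusted p = 0.00141 and 0.000328), while Ifngr2, the other chain, rose by 1.11 and 1.13 (adjusted p = 0.00202 and 0.00211). The transcription factor Irf1 rose in both lines, from a mean of 107 TPM to 501 TPM in H77L_DMSO (2.58, limma, adjusted p = 0.00038) and to 387 TPM in C118F_DMSO (2.06, adjusted p = 0.00802). Its values in C118F_DMSO replicates 1 to 6 were 183, 475, 178, 268, 619 and 601 TPM, so replicate 1, the highest for the immuno-subunits, was among the lowest for Irf1. Irf9, a subunit of the complex that binds interferon-stimulated response elements, rose in C118F_DMSO (1.06, limma, adjusted p = 0.0425), with a difference of 0.12 in H77L_DMSO (adjusted p = 0.695). Socs1, a feedback inhibitor, was not called in either line (0.31 and 0.42). Nlrc5, the transactivator of MHC class I genes, had 0.657 to 9.18 TPM in C118F_DMSO and was not tested, since it missed the expression filter.

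Of the 11 peptide-loading genes, 7 were higher in H77L_DMSO and 8 in C118F_DMSO, and none was lower in either line, against 22.4 and 13.7% of all genes called higher. B2m, the light chain of MHC class I, rose from a mean of 1566 TPM to 7511 TPM in H77L_DMSO and 8565 TPM in C118F_DMSO (2.00 and 2.36, limma, adjusted p = 0.000178 and 5.74e-06). H2-K1, a class I heavy chain, rose by 1.93 and Tapbp, which bridges class I molecules and the transporter, by 0.87 in C118F_DMSO (limma, adjusted p = 7.24e-07 and 0.000165). Tap1, the neighbour of Psmb9 and Psmb8, differed by 0.13 in H77L_DMSO (limma, adjusted p = 0.634) and rose by 1.18 in C118F_DMSO (adjusted p = 0.0453), with 96.7, 18.4, 14.9, 22.0, 104 and 29.6 TPM in replicates 1 to 6. For Tap1, replicates 1 and 5 were again the highest mice.

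A direct comparison of C118F with H77L under DMSO called none of the members and no other gene by limma or limma voom (0% of all genes). At an unadjusted p under 0.05, 4 of 6 members differed, against 3.85% of all genes. These were Psmb8 (1.95), Psmb9 (1.61), Psmb10 (0.97) and Psme2 (0.72), all higher in C118F. By the size of the rise, Psmb8 and Psmb9 ranked 4 and 6 among all 10809 genes tested. Without C118F_DMSO replicate 1, the differences of these 4 members fell to 1.40, 1.23, 0.69 and 0.47 in the same order. Under bortezomib, none of the members was called by limma or limma voom and none had an unadjusted p under 0.05, against 0.972% of all genes called.

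The second question was whether bortezomib changed the subunits. In control mice, none of the 6 members was called by limma or limma voom and none had an unadjusted p under 0.05, while 0% of all genes were called and 8.66% had such a p. Differences in log2(TPM + 1) ranged from -0.22 for Psmb10 to 0.01 for Psme1. In H77L mice, none of the members was called by limma or limma voom either (1.16% of all genes called), and only Psmb10 had an unadjusted p under 0.05 (-0.32 ± 0.14 SE, limma, adjusted p = 0.204), against 20% of all genes. The counterpart Psmb6 rose by 0.34 in bortezomib-treated H77L mice (limma, adjusted p = 0.0471), the only call among the 14 core subunits, of which 12 had an unadjusted p under 0.05.

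In C118F mice, the immuno-subunits had lower medians and a narrower spread under bortezomib than under DMSO. Psmb8 had 4.95, 4.84, 3.26, 5.001 and 2.86 TPM in C118F_Btz replicates 1 to 5, all below the lowest C118F_DMSO mouse at 5.13 TPM. Such a separation was found for 1 of 6 members and 0.509% of all genes. Its gap was narrow, as the nearest mice, C118F_Btz replicate 4 and C118F_DMSO replicate 3, had 108 and 112 recovered reads of Psmb8. Psmb9 had 9.37, 6.71, 3.30, 9.37 and 6.83 TPM, and Psmb10 had 55.6, 40.8, 36.0, 31.2 and 46.9 TPM, and for both genes 3 of 5 mice fell below every C118F_DMSO mouse.

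None of the members was called for bortezomib against DMSO in C118F mice by limma or limma voom, but neither was any other gene (0% of all genes). At an unadjusted p under 0.05, 4 of 6 members differed, against 5.86% of all genes. The differences were -2.23 ± 0.67 for Psmb8, -2.03 ± 0.54 for Psmb9, -1.26 ± 0.39 for Psmb10 and -0.76 ± 0.27 for Psme2 (SE; limma, adjusted p = 0.784, 0.694, 0.784 and 0.784). By p, Psmb9 ranked 34 of 10814 genes. Without C118F_DMSO replicate 1, the differences of these 4 members were -1.68, -1.66, -0.99 and -0.50 in the same order. Fitted together with all 35 mice, Psmb8, Psmb9 and Psmb10 were called lower (limma, adjusted p = 0.037, 0.013 and 0.0463). The common variance of that fit also draws on groups with a smaller spread, so these calls do not rest on the compared groups alone. For Psmb8, the highest mouse exceeded the lowest by 30.5-fold in C118F_DMSO and by at most 6.25-fold in the other groups. Psme1 differed by -0.36 ± 0.18 (SE) and Psme3 by 0.00 with a 95% interval of -0.20 to 0.21.

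The difference between the bortezomib responses was tested as an interaction, in which limma and limma voom called none of the members. For C118F minus control, 3 of 6 members had an unadjusted p under 0.05, against 5% of all genes. For C118F minus H77L, it was 5 of 6 against 7.6%, all but Psme3, with values from -1.996 for Psmb8 to -0.44 for Psme1. Without C118F_DMSO replicate 1, these values were -1.45 for Psmb8 and -0.30 for Psme1. For H77L minus control, it was none against 18.2%. The same C118F_DMSO mice enter all comparisons with that line under DMSO, so these results are not independent of each other.

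Between knock-in and control mice under bortezomib, 1 member was called, Psmb9 in C118F. None was called for H77L by limma or limma voom and none had an unadjusted p under 0.05, against 23.6% of all genes called. For C118F, 1 of 6 members was called lower, against 12.4% of all genes, a share near the background. Psmb9 had 8.96 to 18.1 TPM (median 11.5) in WT_Btz and 3.30 to 9.37 TPM (median 6.83) in C118F_Btz (-0.72 ± 0.24 SE, limma, adjusted p = 0.0382). The call was lost without WT_Btz replicate 3, 4 or 5 or C118F_Btz replicate 2, 3 or 5 (limma, adjusted p up to 0.0954), and without the expression filter (adjusted p = 0.0943).

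Across all 35 mice, the members other than Psme3 varied together. Pearson correlations of log2(TPM + 1) between their pairs were 0.618 to 0.914, whereas those with Psme3 were -0.03 to 0.253. The mice share groups, and after each group was centred on its mean the first range was 0.614 to 0.869. Among 11306 genes, those most like Psmb8 were Tgtp2 (0.955), Il18bp (0.917) and Psmb10 (0.914). For Psmb9 they were Irgm2 (0.922), Igtp (0.912) and its neighbour Tap1 (0.881), and for Psmb10 they were Gbp3 (0.924), Psmb8 (0.914) and Ifit3 (0.889).

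The genes most like Psme1 were Psme2 (0.85), Igtp (0.736) and Ifi35 (0.72), and those most like Psme2 were Psme1 (0.85), Psmb9 (0.844) and its copy Psme2b (0.804). For Psme3, none of the other members was among the nearest genes, which were Eif1ax (0.723), Ormdl1 (0.679) and Mmgt1 (0.662). These correlations describe the same mice as the comparisons and were not tested.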

How the data were processed

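Podocyte RNA of 35 mice was measured. Per the labels and the study's methods, the authors trimmed single-end poly(A) reads with Trim Galore 0.6.7, aligned them to GRCm39 with STAR, which accepted reads with up to 20 loci and reported 1 locus each, and counted them with featureCounts 1.6.3. The authors deposited TPM values, that is, reads per length scaled to a sum of 1000000 per mouse. How counts became TPM, and whether duplicates were removed, are not given in the sources used here. Whole reads were recovered from the TPM steps for 100% of the 23943 genes above 0 (tolerance 0.0001), which gave the depth. Genes were named with GENCODE vM39 (32776 of 33292 identifiers).

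For each of 12 comparisons, log2(TPM + 1) of the mice compared was fitted with limma 3.58.1 (R 4.3.3; lmFit, eBayes with trend) for genes above 1 TPM in every mouse of at least 1 group, with Benjamini-Hochberg adjustment over all genes. Fold changes are on this scale, which understates changes of low genes. Log2 ratios within catalytic pairs were compared by two-sided exact permutation tests (Python 3.11.15), adjusted over 21 tests. The scripts were tested on simulated data. Values after ± are standard errors of the difference from limma, which rest on the spread between mice, moderated across genes. They are not counting errors of reads, since PCR copies inflate reads. Replicate numbers only name mice. The alternatives were another pseudocount (0.1), no filter, all mice in 1 fit, median-of-ratios scaling, the title number as covariate, array quality weights, the study's thresholds and leaving out each mouse. A further alternative, limma voom on recovered reads, was chosen after seeing the data.

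Named were the members, their counterparts, at most 3 genes per companion list with the lowest p, Tap1, Irf1, Irf9, Nlrc5, Socs1 and B2m, and the 3 genes most correlated with each member. Other genes were named as copy or targeted gene, and 1 gene of this rule is not reported here. The members and lists were chosen with earlier results of these data known. Protein sequences were not used here.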

Additional observations from a re-analysis of the deposited data

Results flagged for a closer look

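In each group of 5 or 6 mice, the highest and lowest mouse was compared with the nearest other mouse for every member, which gave 36 checks of which chance flags about 1 in 20. Both mice that stood apart did so for Psme2. C118F_Btz replicate 1 had 211 TPM, with the other mice of its group at 164 to 174 TPM. H77L_DMSO replicate 6 had 205 TPM, with the others at 171 to 180 TPM. The same H77L_DMSO mouse was the highest of its group for Psmb8 (14.7 TPM) and Psmb9 (18.9 TPM).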

How the results depend on the processing

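Of 1481 values recomputed under alternatives, 1366 kept their direction and their side of the threshold. No paired analysis was possible because the replicate numbers only name mice and the title numbers are not shared between groups. For the count of members called, the main values were 2 for H77L and 2 for C118F against control under DMSO, 0 and 1 under bortezomib, and 0 for bortezomib against DMSO in each genotype. With the study's thresholds, all of these were 0. With all 35 mice in 1 fit, they became 0 for H77L under DMSO, 0 for C118F under bortezomib and 3 for bortezomib against DMSO in C118F, and for C118F under DMSO 3, with Psmb9 added. In that fit, all groups share a common variance per gene. With the title number as covariate, the count was 1 for C118F under DMSO and 1 for H77L under bortezomib. For C118F under bortezomib it was still 1, but for Psmb10 (0.87, higher) and not Psmb9 (-0.48). Limma voom gave 1 for C118F under DMSO. For C118F under bortezomib, no filter gave 0 and array quality weights gave 2, and with 1 mouse left out it ranged from 0 to 2. Causes were not tested.

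Signs turned for uncalled differences close to 0. For Psme3, C118F against control under DMSO was 0.048 with median-of-ratios scaling and 0.024 with the title number (-0.066 to 0.026 with 1 mouse left out). For the same gene, H77L against control under DMSO ranged from -0.078 to 0.014 with 1 mouse left out, and C118F against control under bortezomib was -0.012 with limma voom (-0.030 to 0.049). Bortezomib against DMSO for Psme3 was 0.0175 with the title number in WT mice (-0.073 to 0.024), and -0.070 with median-of-ratios scaling and -0.058 with limma voom in C118F mice (-0.033 to 0.043). For Psme1 in WT mice it was -0.0045 with median-of-ratios scaling, -0.021 with array quality weights and -0.026 with limma voom (-0.030 to 0.056). In H77L mice it was 0.021 for Psmb8 (-0.41 to 0.040) and 0.071 for Psmb9 (-0.19 to 0.093) with array quality weights.

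With 1 mouse left out, the log2 ratio of Psmb8 to Psmb5 ranged from 2.41 to 3.404 for C118F against control under DMSO, from -2.79 to -1.79 for bortezomib in C118F and from -0.29 to 0.059 for bortezomib in WT mice. That of Psmb9 to Psmb6 ranged from 1.27 to 2.03, from -2.58 to -1.82 and from -0.12 to 0.14, and from -0.16 to 0.15 for H77L under DMSO. That of Psmb10 to Psmb7 ranged from 1.46 to 2.00 for C118F and from 0.63 to 0.85 for H77L under DMSO, and for bortezomib from -1.62 to -1.08 in C118F and from -0.63 to -0.41 in H77L. Over all genes, the title number as covariate lowered the calls for H77L under DMSO from 4907 to 2873. Without the filter, bortezomib called 0 instead of 125 genes in H77L. Psmb8 rested on as few as 24 reads in C118F_Btz replicate 2, which limits its precision there.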
